A study of Homo sapiens with 100 samples.

Results

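The 39 genes described here make the proteins that copy DNA in S phase, from the loading of the helicase at origins to the synthesis of deoxynucleotides and the repackaging of new chromatin. They were taken from the deposited table by symbol, and all 39 were found among its 78894 gene identifiers. All 39 also passed the expression filter, which left 14962 genes to be tested in the 24 h set. The table holds 3' end RNA counts from 100 cultures of TMD8, an established human B cell lymphoma line (diffuse large B cell type, activated subtype). There were 11 single-cell clones, 5 of them wild-type and 6 carrying A428D, and the parental line, which is described by 1 untreated library. Each clone was kept for 24 h in 8 conditions, which gave 88 libraries in 16 groups. These were DMSO (the solvent), zelebrudomide, bexobrutideg, pomalidomide, venetoclax, and venetoclax together with each of the other compounds. All 11 clones were also sequenced untreated. Venetoclax blocks the survival protein BCL2. Bexobrutideg is a degrader of BTK, a kinase of B cell receptor signalling, zelebrudomide is a degrader of BTK that also removes IKZF1 and IKZF3, and pomalidomide directs IKZF1 and IKZF3 to degradation through cereblon. The growth and design texts put A428D in the endogenous BTK gene, whereas the sample titles attach it to SF3B1, and a base change cannot be read from counts of 3' ends. Each replicate is 1 clone, so the spread within a group holds differences between clones as well as between cultures, and all clones derive from a single line. The sources used here give no doses.

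Origins of replication are licensed in G1, when the origin recognition complex, CDC6 and CDT1 load the MCM2-7 helicase as an inactive double ring. At the start of S phase, CDC45 and the GINS complex join the helicase and turn it on, after which polymerases alpha, delta and epsilon, the clamp PCNA and its loader RFC copy the strands. Most of these genes are known targets of the E2F transcription factors, which the retinoblastoma protein holds back until cyclin-dependent kinases act, so their RNA is higher in cells that pass from G1 into S phase than in resting cells. In a culture measured in bulk, fewer cells in S phase and less RNA per cell cannot be told apart.

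The sequences before the start sites are shown because E2F sites are the feature that these promoters are best known to share. RefSeq promoter windows (GRCh38.p14) were matched by symbol for 36 of the 39 genes, and the 250 bases before each annotated start were searched on both strands for 4 spellings of the E2F site: TTTGGCGC, TTTCCCGC, TTTGCCGC and TTTCGCGC. At least 1 spelling was found for 16 of the 36 genes (44.4%), against 586 of 9993 tested genes with a window (5.9%). By window, it was found in 17 of 47 windows of these genes (36.2%), against 979 of 35116 windows of that length in all (2.79%). Of 17 genes of mitosis with a window, 2 held one. Windows of MCM6 (chr2:135876444-135876693, minus strand), PCNA (chr20:5126623-5126872, minus strand) and E2F1 (chr20:33686386-33686635, minus strand) are printed whole, and 28 bases around the match nearest the start for DTL (chr1:212035730-212035757, plus), GINS2 (chr16:85688968-85688995, minus), UHRF1 (chr19:4909477-4909504, plus), CDT1 (chr16:88803744-88803771, plus) and TYMS (chr18:657604-657631, plus). All read 5′ to 3′ on the strand of the gene, with capitals on the E2F spelling or its reverse complement.
MCM6: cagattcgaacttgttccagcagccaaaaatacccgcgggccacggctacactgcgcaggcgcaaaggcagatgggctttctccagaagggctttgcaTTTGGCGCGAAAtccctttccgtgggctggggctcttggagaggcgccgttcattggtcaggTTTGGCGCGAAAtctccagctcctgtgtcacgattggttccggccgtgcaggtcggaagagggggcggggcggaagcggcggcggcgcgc
PCNA: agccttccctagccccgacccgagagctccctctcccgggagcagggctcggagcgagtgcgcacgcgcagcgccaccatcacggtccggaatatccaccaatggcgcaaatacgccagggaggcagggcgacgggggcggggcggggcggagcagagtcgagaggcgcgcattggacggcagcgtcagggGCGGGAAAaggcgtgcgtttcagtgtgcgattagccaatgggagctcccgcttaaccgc
E2F1: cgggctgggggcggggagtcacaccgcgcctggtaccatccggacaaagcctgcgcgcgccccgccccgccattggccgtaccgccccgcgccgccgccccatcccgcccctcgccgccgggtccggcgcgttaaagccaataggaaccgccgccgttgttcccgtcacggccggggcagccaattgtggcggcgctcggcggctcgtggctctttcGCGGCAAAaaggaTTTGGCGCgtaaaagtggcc
DTL: gtgacgtcagTTTGGCGCggagtttggc
GINS2: tctcgccgtgGCGGGAAAacggcggccg
UHRF1: ccgagttttcGCGGGAAAaaaatcagag
CDT1: cagggcgcccGCGGGAAAtttggcggga
TYMS: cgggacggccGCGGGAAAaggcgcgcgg

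The MCM6 window held 4 matches, beginning 152, 148, 90 and 86 bases before the start, as overlapping pairs. In the E2F1 window, 2 matches began 33 and 20 bases before the start, and in the PCNA window 1 began 59 bases before it. The box CCAAT, bound by NF-Y, occurred in 23 of the 36 genes (63.9%), against 41.7% of tested genes, and TTTGAA, a core of the CHR element of late cell cycle genes, in 1 (2.8%), against 12.1% of tested genes and 9 of 17 mitosis genes. CCAAT and TTTGAA were also searched on both strands of the same 250 bases. A match is a description of letters, not a site in use. The starts are those of RefSeq. The stretches of GINS2, UHRF1 and CDT1 came from windows that lie wholly inside the gene as GENCODE 29 bounds it. The windows of DTL and TYMS held 195 and 49 such bases, and those of E2F1 and PCNA 19 and 4.

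Depth set limits on single values. A library of the 24 h set held between 1.48 and 9.39 times 1000000 counts, and one of the untreated set between 10.4 and 12.5 times 1000000. The wild-type clone 3 library given bexobrutideg and venetoclax was the shallowest and stood apart: all 39 members lay outside the range of the other 4 clones, 26 above and 13 below, as did 81.1% of the 14962 tested genes, against 26.9% to 32.3% for the other clones of that group. Results of that group are therefore given with and without it. A428D clone 1 had the lowest level of its group for 36 to 39 of the 39 members in every 24 h condition. The B cell markers CD79A, CD79B, MS4A1, PAX5 and CD22 were expressed, and of 11 markers of T, myeloid, fibroblast and endothelial cells only COL1A1 passed the filter in the 24 h set. Levels are counts per 1000000 counts of a library (CPM), scaled within a set, and are compared between samples and not between genes. Strand was not stated, and 23 of the 39 genes overlap another annotated gene (GENCODE 29), whose reads cannot be told apart from theirs.

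Summed over the 39 genes, wild-type clones 1 to 5 held 895, 1035, 1029, 892 and 897 CPM under DMSO and 1610, 2276, 2362, 2078 and 2305 CPM under venetoclax. The lowest venetoclax library was above the highest DMSO library. In A428D clones the sum had a lowest, median and highest value of 704, 1262 and 1547 CPM under DMSO and of 1357, 1996 and 2445 CPM under venetoclax, and these ranges overlapped. With zelebrudomide added to venetoclax, wild-type clones held 1052, 1724, 1774, 1537 and 1563 CPM, each below its own value under venetoclax, while A428D clones averaged 2109 ± 439 CPM (SD, n = 6) against 1981 ± 354 under venetoclax alone. The sums are descriptions, with no test.

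**Figure D1:**
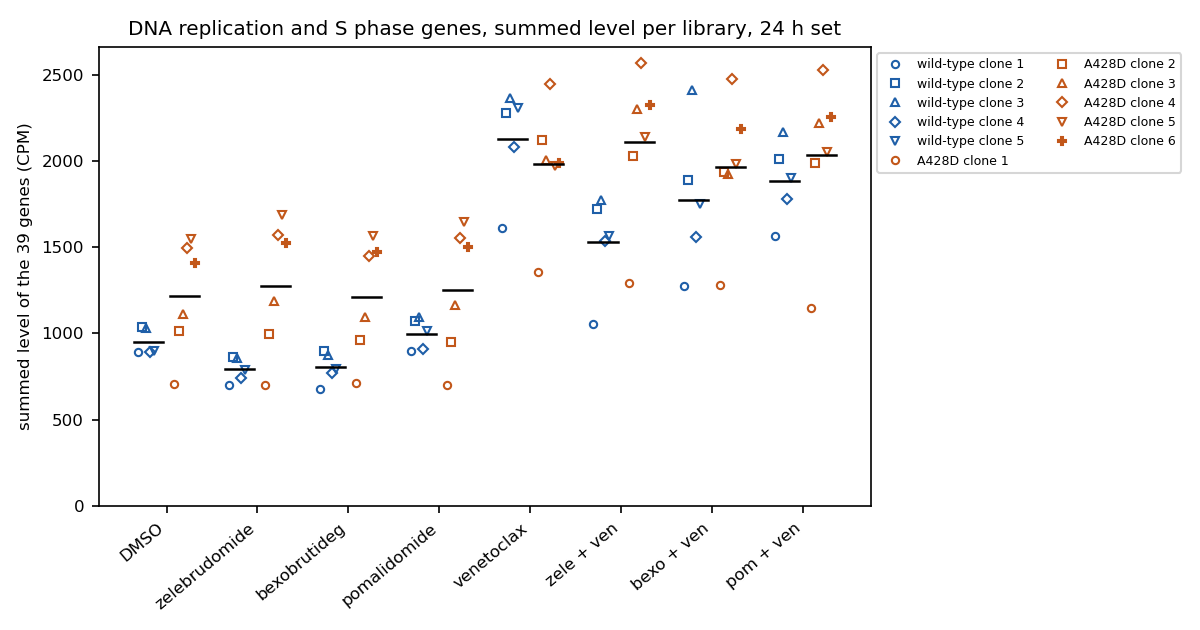
Summed level of the 39 genes in CPM (y axis) in each 24 h condition (x axis), with 1 point per clone (blue wild-type, orange A428D) and a line at each group mean. Wild-type clones rise from a mean of 949.7 under DMSO to 2126 under venetoclax and stand at 1530 with zelebrudomide added.

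Venetoclax was compared with DMSO to see how these genes stood after 24 h with venetoclax alone. In wild-type clones, 38 of the 39 members rose, none fell and POLE did not pass the test, with a median log2 change of 1.23 (-0.06 over all genes). Across all 14962 genes, 32.8% were called in either direction, and 15.4% of all genes were called higher. All 39 members were higher under venetoclax than under DMSO in each of the 5 clones, as were 22.7% of all genes. For 38 of the members the ranges did not overlap, LIG1 being the exception, and 14.2% of all genes lay as fully above DMSO. The called genes covered each role: 11 of 11 origin genes (median log2 change 1.17), 6 of 6 firing genes (1.57), 12 of 13 fork genes (1.11), 4 of 4 nucleotide genes (1.13) and 5 of 5 genes of chromatin and control (1.57). COL1A1, a fibroblast collagen and the only one of the 11 markers of other cell types to pass the filter, also moved, from 7.295 ± 2.34 to 2.53 ± 0.805 CPM (SD, n = 5), and its part in the result was not tested. The medians of the 16 genes with an E2F spelling (1.24) and of the 20 without (1.15) were close. POLE was called as well (0.40, SE 0.10, adjusted p = 0.000463) when the clone entered the model as a block. The count was 35 to 39 when any 1 clone was left out. Here and below, counts from leaving out a clone come without the share of all genes called in that fit. They are therefore not results about the members alone.

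Among the origin genes, MCM2, a subunit of the helicase ring, stood at 39.6, 46.6, 45.9, 43.8 and 37.6 CPM under DMSO and 70.5, 99.7, 115, 89.1 and 106 CPM under venetoclax in wild-type clones 1 to 5 (log2 change 1.17, SE 0.27, adjusted p = 0.000362). MCM4 and MCM6, other subunits of the ring, rose by 1.75 and 1.54 on the log2 scale, MCM5 least of the ring at 0.45. CDC6, which loads the ring onto origins, went from 11.8, 14.1, 14.9, 12.7 and 10.8 CPM to 24.1, 35.5, 35.99, 31.4 and 38.6 CPM (log2 change 1.36, SE 0.20, adjusted p = 1.47e-07). Every venetoclax library lay above every DMSO library for both genes. CDT1, the partner of CDC6 in loading, had 24.8, 27.8, 26.02, 23.97 and 20.6 CPM under DMSO and 36.1, 54.2, 48.8, 38.6 and 44.7 CPM under venetoclax (log2 change 0.85, SE 0.27, adjusted p = 0.0101). Geminin (GMNN), which binds CDT1 and stops a second round of loading, had 14.4, 17.1, 12.2, 13.8 and 14.3 and 29.1, 33.4, 36.2, 29.6 and 28.8 CPM (log2 change 1.13, SE 0.20, adjusted p = 6.21e-06). CDT1 and its inhibitor thus both rose, without overlap between the groups.

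The firing genes held the steepest rises. MCM10, which helps assemble the active helicase, had 11.5, 15.3, 15.1, 10.2 and 9.14 CPM under DMSO and 37, 46.6, 55.6, 45.7 and 48.5 CPM under venetoclax, a 3.802-fold rise (log2 change 1.93, SE 0.27, adjusted p = 6.29e-08). GINS2, a subunit of the GINS complex, had 4.84, 7.66, 7.81, 5.78 and 7.67 and 19.3, 29.4, 26.9, 21.95 and 27.6 CPM (log2 change 1.89, SE 0.31, adjusted p = 2.27e-06). For both genes clone 1 was the lowest under venetoclax and still above all DMSO values. CDC45, which rides with GINS on the helicase, had 12.4, 13.8, 16.8, 13.8 and 9.14 and 28.4, 46.01, 55.9, 43.4 and 53.3 CPM (log2 change 1.78, SE 0.30, adjusted p = 3.14e-06). GINS1 and GINS4 rose by 1.35 and 1.11 on the log2 scale, and GINS3, of the same complex, by 0.40.

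At the fork, the clamp PCNA had 129.5, 161, 163, 124 and 133 CPM under DMSO and 281, 421, 424, 392 and 413 CPM under venetoclax (log2 change 1.44, SE 0.25, adjusted p = 3.57e-06). POLE2, the second subunit of polymerase epsilon, had 3.18, 2.47, 3.55, 3.103 and 2.95 and 7.31, 9.39, 10.3, 8.39 and 8.73 CPM (log2 change 1.53, SE 0.28, adjusted p = 1.5e-05). Both separated the groups fully. The catalytic subunits of the main polymerases moved less: POLD1 of polymerase delta rose by 0.51 on the log2 scale, POLA1 of polymerase alpha by 0.83, and POLE of polymerase epsilon had 17.96, 18.3, 17.2, 18.7 and 18.7 against 19.5, 24.2, 25.4, 26.1 and 24.5 CPM without being called (log2 change 0.40, SE 0.18, adjusted p = 0.0802). The clamp loader subunits RFC2, RFC3, RFC4 and RFC5 rose by 1.11, 1.25, 0.92 and 1.14. FEN1, which trims the flaps between Okazaki fragments, rose by 1.45, and LIG1, which seals them, by 0.69. POLA2 and PRIM1, partners of POLA1 in making primers, rose by 1.43 and 0.69.

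Of the nucleotide genes, RRM2, the regulated subunit of ribonucleotide reductase, had 19.9, 21.99, 24.8, 16.7 and 15.04 CPM under DMSO and 36.3, 66.3, 75, 67.3 and 73.4 CPM under venetoclax, a 3.23-fold rise (log2 change 1.69, SE 0.27, adjusted p = 1.37e-06). Its partner RRM1 rose by 0.86 on the log2 scale. TYMS, thymidylate synthase, had 43.4, 52.9, 45.7, 46.2 and 36.6 and 77.8, 129, 128, 108 and 137 CPM (log2 change 1.37, SE 0.28, adjusted p = 8.61e-05), and TK1, the thymidine kinase of the salvage route, rose by 0.89. Neither RRM2 nor TYMS overlapped between the groups.

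In the last group, E2F1, a transcription factor of the G1 to S transition, had 10.4, 11.7, 16.4, 11.6 and 13.1 CPM under DMSO and 25.5, 26.1, 31.8, 30.2 and 35.2 CPM under venetoclax (log2 change 1.23, SE 0.23, adjusted p = 1.42e-05). UHRF1, which maintains DNA methylation behind the fork, had 12.1, 15.9, 15.7, 11.5 and 12.5 and 28.4, 43.8, 45.9, 39 and 43.5 CPM (log2 change 1.57, SE 0.30, adjusted p = 2.68e-05). DTL, the receptor that sends CDT1 to destruction in S phase, had 7.39, 8.402, 9.82, 5.89 and 5.897 and 19.3, 26.1, 29.8, 23.1 and 26.95 CPM (log2 change 1.74, SE 0.24, adjusted p = 2.91e-08). The 3 genes separated the groups fully. CHAF1B and CHAF1A, of the chromatin assembly factor that follows PCNA, rose by 1.62 and 1.16, from 3.51 ± 0.511 to 10.8 ± 2.49 CPM (SD, n = 5) in the case of CHAF1B.

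**Figure D2:**
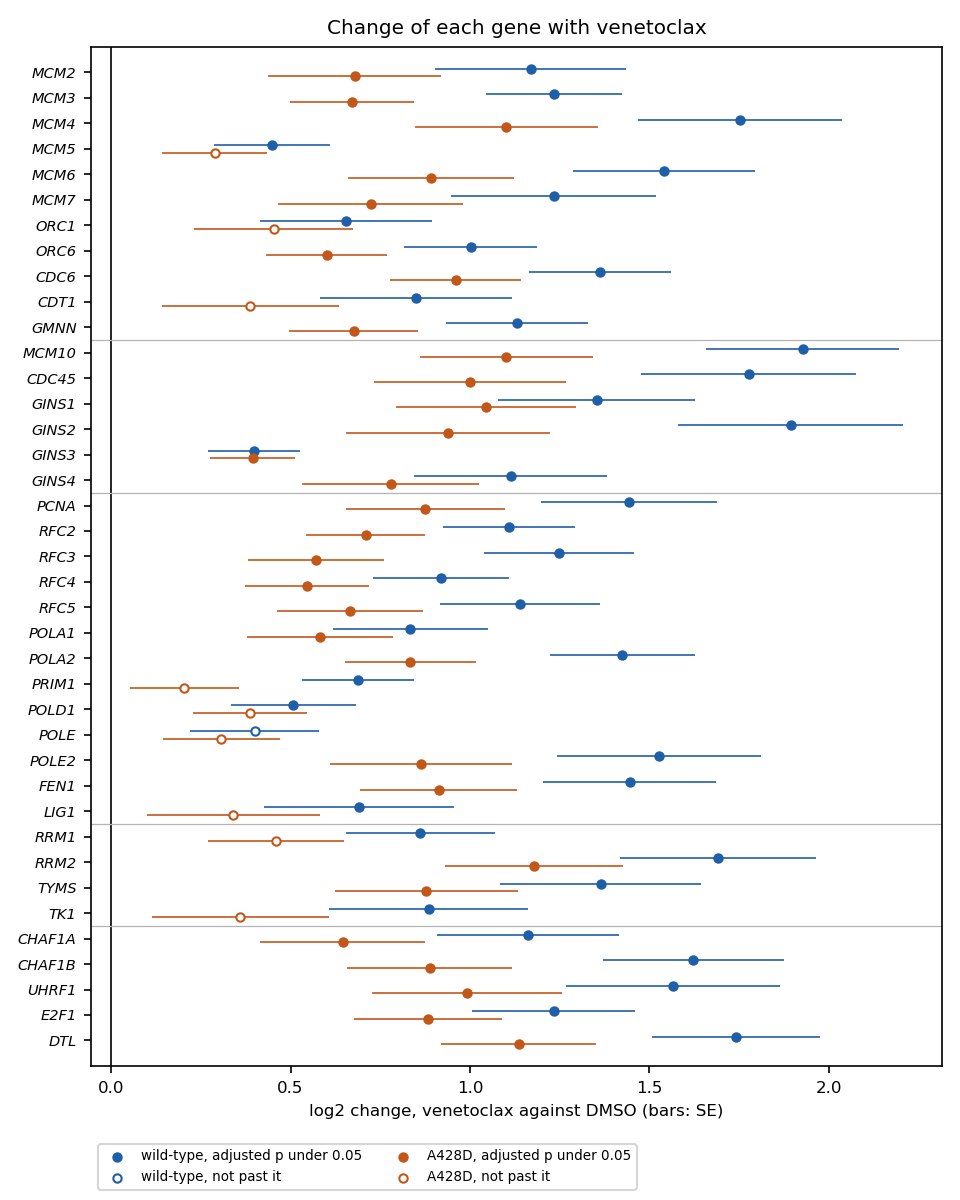
Log2 change under venetoclax against DMSO for each of the 39 genes (bars are the SE of the fit), in wild-type and A428D clones, ordered by role. MCM10 is highest in wild-type clones at 1.93 and RRM2 in A428D clones at 1.18, and all values are above 0.

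In A428D clones, 30 of the 39 members rose under venetoclax and none fell (median log2 change 0.71, against -0.04 over all genes), where 16.8% of all genes were called. The median change per clone was 0.97, 1.09, 0.86, 0.63, 0.35 and 0.48 for clones 1 to 6, all above 0. The largest changes were those of RRM2 (1.18, SE 0.25, adjusted p = 0.000457), DTL (1.14), MCM10 (1.1), MCM4 (1.1), GINS1 (1.05), CDC45 (1.0), UHRF1 (0.99), CDC6 (0.96), GINS2 (0.94) and FEN1 (0.91). RRM2 had a lowest, median and highest level of 11.4, 26.1 and 32.1 CPM under DMSO and 35.2, 52.8 and 66.5 CPM under venetoclax, which did not overlap. MCM10 had 5.98, 17.9 and 24.98 and 25.7, 36.8 and 47.8 CPM, also without overlap. For E2F1 the values were 6.99, 15.97 and 20.7 and 20.1, 28.2 and 32.1 CPM, which overlapped (log2 change 0.88, SE 0.21, adjusted p = 0.00152). In all, 8 members did not overlap between the groups (MCM4, CDC6, MCM10, PCNA, RFC2, POLA2, RRM2 and DTL), where 3.64% of all genes lay fully above DMSO, and 33 were higher in all 6 clones, as were 13% of all genes. COL1A1 fell here too, from 8.64 ± 3.61 to 2.92 ± 1.38 CPM (SD, n = 6; log2 change -1.59, SE 0.35, adjusted p = 0.000664), and its part in the result was not tested. The 9 members not called were MCM5, ORC1, CDT1, PRIM1, POLD1, POLE, LIG1, RRM1 and TK1. A model with the clone as a block gave 38 higher, where 30.7% of all genes were called. Without the block and without A428D clone 2 the count fell to 18 of 39, with the share of all genes not given.

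Whether the response differed between genotypes was tested directly. No member was called for the difference in the response to venetoclax by edgeR's quasi-likelihood test or by DESeq2, nor was any gene by edgeR (0% of 14962). At an unadjusted p under 0.05, 7 members were below 0. The median difference, A428D minus wild-type, was -0.49 on the log2 scale. Blocking on the clone gave 2 members lower in A428D, RFC3 (-0.66, SE 0.16, adjusted p = 0.047) and MCM3 (-0.53, SE 0.12, adjusted p = 0.0326), where 0.174% of all genes were called. The block together with leaving out the library that stood apart gave 8 of 39, where 1.81% of all genes were called. RFC3 had 15.9, 17.8, 20.2, 15.8 and 17.8 CPM under DMSO and 30.7, 43.4, 45.4, 41.6 and 46.7 CPM under venetoclax in wild-type clones, and lowest, median and highest levels of 13.5, 23.03 and 25.9 and 23.6, 33.6 and 36.96 CPM in A428D clones. Its level under venetoclax overlapped between the genotypes.

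Genes of the same pathway outside the 39 moved likewise. Of 48 other replication and S phase genes, 38 rose and 1 fell in wild-type clones under venetoclax (median log2 change 0.78), and 29 rose and 1 fell in A428D clones (0.49). The steepest were CDC25A (1.75), a phosphatase that activates cyclin-dependent kinases, EXO1 (1.61), a nuclease of mismatch repair, and the E cyclins CCNE2 (1.52) and CCNE1 (1.5), which drive entry into S phase. In A428D clones the same 4 genes led, at 1.16, 1.11, 1.38 and 1.29. Of 22 genes of mitosis, 1 rose in wild-type clones, CDK1 (0.75; median of the list 0.20), and 0 in A428D clones (median 0.09; edgeR, 0 at an unadjusted p under 0.05). Their summed level was 1010 ± 86.8 CPM under DMSO and 1155 ± 119 CPM under venetoclax in wild-type clones (SD, n = 5).

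The combinations were compared with venetoclax alone, and the 3 comparisons share the venetoclax libraries. With zelebrudomide added in wild-type clones, 10 members fell and none rose, with a median log2 change of -0.52 (0.03 over all genes), where 21.2% of all genes were called and 9.61% were called lower. The 10 were CHAF1B (-0.99, SE 0.26, adjusted p = 0.0039), E2F1 (-0.84, SE 0.24, adjusted p = 0.00642), FEN1 (-0.82, SE 0.24, adjusted p = 0.0103), CDC45 (-0.81, SE 0.30, adjusted p = 0.0424), DTL (-0.79, SE 0.24, adjusted p = 0.0102), MCM10 (-0.79, SE 0.26, adjusted p = 0.023), MCM2 (-0.74, SE 0.27, adjusted p = 0.0381), RRM2 (-0.74, SE 0.27, adjusted p = 0.041), ORC1 (-0.72, SE 0.26, adjusted p = 0.0371) and CDC6 (-0.64, SE 0.20, adjusted p = 0.0162). They include 3 origin, 2 firing, 1 fork and 1 nucleotide gene and 3 of chromatin and control. Within clones, 31 members were lower in all 5 and none was higher in all 5, against 19.2% of all genes lower and 19.8% higher. The median change per clone was -0.63, -0.43, -0.37, -0.55 and -0.58. Library measures separated the same groups: the share of mitochondrial counts was 9.41% to 10.3% with zelebrudomide added and 7.73% to 8.945% under venetoclax alone, and the depth was 3.15 to 6.12 and 6.49 to 7.39 times 1000000 counts. COL1A1 stood at 4.89 ± 1.58 and 2.53 ± 0.805 CPM (SD, n = 5) without being called (adjusted p = 0.0863). The part of these measures in the result was not tested.

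E2F1 had 13.2, 15.9, 18.6, 19.9 and 15.98 CPM in wild-type clones 1 to 5 with both compounds, all below the 25.5, 26.1, 31.8, 30.2 and 35.2 CPM under venetoclax alone. MCM10 had 20.1, 30.6, 30.4, 30.2 and 24.6 CPM, MCM2 42.5, 64.2, 66.9, 56.7 and 58.2 CPM, and DTL 10.96, 14.4, 16.98, 16.1 and 14.7 CPM. For these 4 genes and for ORC1, POLE2 and FEN1 the groups did not overlap, 7 members in all, where 8.74% of all genes lay fully below venetoclax alone. RRM2 had 25.3, 37.9, 49.6, 39.7 and 40.1 CPM and CDC6 15.5, 26.3, 20.6, 20.7 and 24.6 CPM, and clone 1 under venetoclax alone lay inside both ranges. ORC1, the largest subunit of the origin recognition complex, had 12.7 ± 1.59 CPM under DMSO, 20.1 ± 2.51 under venetoclax and 12.3 ± 1.26 with both compounds (SD, n = 5). TK1 was not called, at 33.7 ± 6.23 and 35.9 ± 6.89 CPM (log2 change 0.07).

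When the clone was a block, 30 members fell with zelebrudomide added, where 32.5% of all genes were called. Without A428D clone 1, which shares the estimate of spread, 25 fell, and with any 1 wild-type clone left out 5 or 6 fell. The share of all genes called in those fits is not given here. Of the 48 other replication genes, 1 rose and 11 fell, led by EXO1 (-1.02), CDC25A (-0.88) and TIPIN (-0.80), a fork protection protein. No mitosis gene was called among 22 (edgeR; 0 at an unadjusted p under 0.05; median -0.20).

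Bexobrutideg with venetoclax gave 5 members lower than venetoclax alone in wild-type clones and none higher (median log2 change -0.32), where 15.5% of all genes were called, 7.51% lower. They were CDT1 (-0.86, SE 0.28, adjusted p = 0.0245), CHAF1B (-0.71, SE 0.26, adjusted p = 0.0442), POLA2 (-0.65, SE 0.20, adjusted p = 0.0189), E2F1 (-0.64, SE 0.23, adjusted p = 0.0443) and RFC2 (-0.55, SE 0.19, adjusted p = 0.0337). The depth of the group, 1.48 to 6.11 times 1000000 counts, lay below that of the venetoclax group. The group holds the library that stood apart, in which CDT1 was at 2.99 CPM against 22.1 to 33.3 in the other 4 clones, E2F1 at 5.98 against 19.4 to 22.5, and PCNA at 835 against 217 to 349. The share of mitochondrial counts was 6.24% in that library and 9.215% to 9.963% in the other 4, against 7.727% to 8.945% under venetoclax alone. The part of depth and of this share in the result was not tested. Without that library 2 members were called lower, CHAF1B (-0.88, SE 0.27, adjusted p = 0.016) and POLA2 (-0.59, SE 0.21, adjusted p = 0.0459), where 15.6% of all genes were called, and CDT1 and E2F1 were not (adjusted p = 0.0761 and 0.118). Blocking on the clone gave 21 members lower with that library (25.4% of all genes called) and 27 without it (26.7%). Leaving out all of wild-type clone 3 gave 0 of 39, any other wild-type clone 2 or 3, and A428D clone 1 14.

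Pomalidomide added to venetoclax gave no called member in wild-type clones by edgeR or DESeq2 (smallest adjusted p = 0.0708, GINS3 at -0.36), with 2 at an unadjusted p under 0.05, while 8.41% of all genes were called. The median log2 change was -0.21, and 17 members were lower and 1 higher in all 5 clones, against 14.3% and 14.7% of all genes. Under the block on clone 7 were lower: GINS2 (-0.53), E2F1 (-0.51), CDC45 (-0.45), GINS3 (-0.36), POLE (-0.33), LIG1 (-0.32) and FEN1 (-0.31), where 17.2% of all genes were called. E2F1 and GINS3 were lower in every library with pomalidomide than in any with venetoclax alone, as were 4.78% of all genes. COL1A1 was higher with pomalidomide added (1.55, SE 0.39, adjusted p = 0.00469), and its part was not tested. The share of mitochondrial counts was 8.883% to 10.27% with pomalidomide added and 7.727% to 8.945% under venetoclax alone, and its part was not tested either. Without A428D clone 1, 2 members were called lower, and 1 without A428D clone 2, A428D clone 5, wild-type clone 3 or the library that stood apart.

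**Figure D3:**
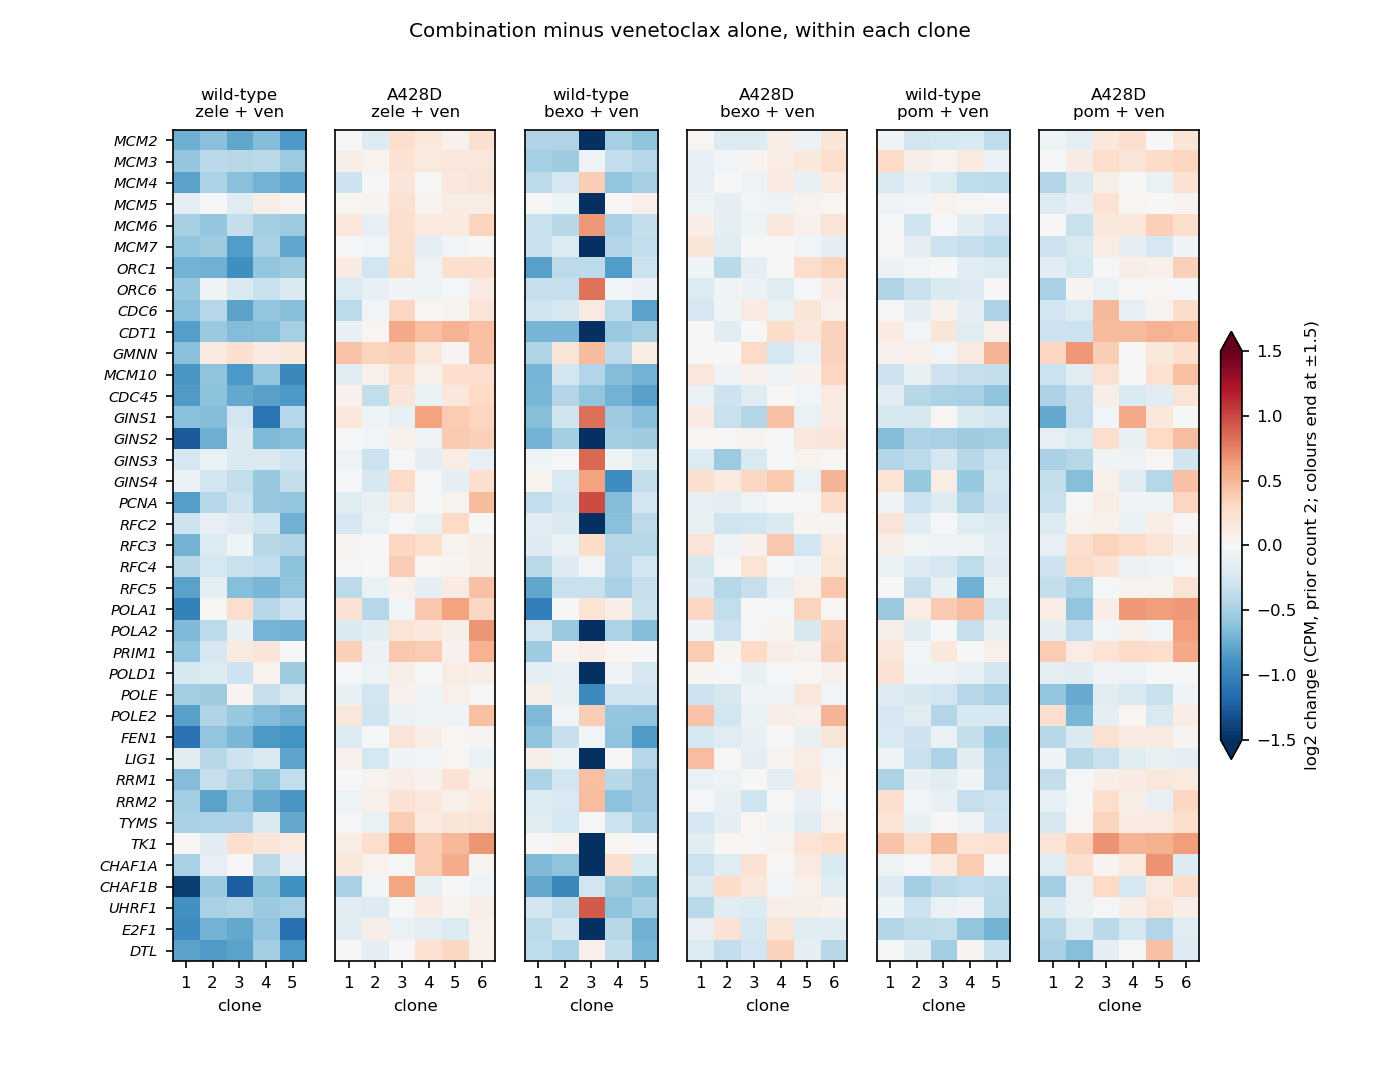
Log2 change of each of the 39 genes within each clone for a combination against venetoclax alone, as a colour scale, with 1 column per clone and the genes down the side by role (colours end at ±1.5). With zelebrudomide in wild-type clones, 31 genes are on the lower side in all 5 clones.

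In A428D clones, no member was called for any combination against venetoclax by edgeR or DESeq2. With zelebrudomide the median log2 change was 0.08 with 1.07% of all genes called, with bexobrutideg -0.01 with 0% called, and with pomalidomide 0.02 with 7.91% called. At an unadjusted p under 0.05 there were 0, 0 and 2 members. COL1A1 was higher with pomalidomide added (log2 change 1.84, adjusted p = 4.59e-05) and not called with zelebrudomide or bexobrutideg added, and its part was not tested. MCM10 had 36.7 ± 7.89 CPM under venetoclax and 40.4 ± 9.72 with zelebrudomide added (SD, n = 6), and E2F1 27.7 ± 4.39 and 26.5 ± 4.83. The groups overlapped for all 39 members in each of the 3 comparisons, while 1.15%, 0.0668% and 4.17% of all genes did not overlap. With the clone as a block, TK1 was higher with zelebrudomide (0.43, SE 0.11, adjusted p = 0.00768), where 5.11% of all genes were called. With pomalidomide, TK1 (0.49, SE 0.11, adjusted p = 0.000496) and GMNN (0.29, SE 0.10, adjusted p = 0.0428) were higher and POLE (-0.35, SE 0.09, adjusted p = 0.00237) and E2F1 (-0.32, SE 0.12, adjusted p = 0.0484) lower, where 16.3% of all genes were called. The median change per clone with zelebrudomide was -0.02, -0.07, 0.19, 0.06, 0.11 and 0.19 for A428D clones 1 to 6, against -0.63, -0.43, -0.37, -0.55 and -0.58 for wild-type clones 1 to 5.

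The difference between the genotypes in the response to zelebrudomide added to venetoclax was not called for any member by edgeR (median difference 0.62, smallest adjusted p = 0.0561; 16 at an unadjusted p under 0.05), where 6.22% of all genes were called. DESeq2 called 1. With the clone as a block, 26 members were higher in A428D relative to wild-type and none lower, where 18.2% of all genes were called. The largest differences were those of CHAF1B (0.99, SE 0.24, adjusted p = 0.00187), CDT1 (0.97), MCM10 (0.90), GINS1 (0.85), FEN1 (0.85, SE 0.15, adjusted p = 1.76e-05), DTL (0.83), RRM2 (0.83), MCM2 (0.82), CDC45 (0.82) and GINS2 (0.79). The unblocked count was 15 without A428D clone 1 and 3 without the library that stood apart, with the share of all genes called not given. Among the 48 other replication genes, 4 were called higher without the block, EXO1 (1.06), WDHD1 (0.82), POLD3 (0.80) and SLBP (0.69).

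For bexobrutideg with venetoclax the difference was called for no member by edgeR or DESeq2 (median 0.35; 5 at an unadjusted p under 0.05; 3.36% of all genes called). With the block, 11 members were higher in A428D: CDT1, GINS2, CHAF1B, MCM10, MCM2, CDC45, MCM7, ORC1, POLA2, E2F1 and MCM3, with log2 differences from 0.91 for CDT1 to 0.46 for MCM3, where 10.9% of all genes were called. With the block and without the library that stood apart there were 15 (13.2% of all genes). Without the block there was 1 without A428D clone 1 and none without the library that stood apart. For pomalidomide with venetoclax it was called for no member with or without the block or by DESeq2 (median 0.20; 0 at an unadjusted p under 0.05; 0% of all genes called by edgeR).

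Against DMSO, which these comparisons share with that of venetoclax, the combinations stayed on the higher side in wild-type clones. Zelebrudomide with venetoclax gave 21 members higher (median log2 change 0.72; 23.4% of all genes called), bexobrutideg with venetoclax 28 (0.85; 21.3%) and pomalidomide with venetoclax 35 (1.17; 36.8%), and none was lower. For zelebrudomide with venetoclax the largest were GINS2 (1.2), GMNN (1.16), MCM10 (1.13), MCM4 (1.07), MCM6 (1.03), UHRF1 (0.99), CDC45 (0.97), TK1 (0.96), RRM2 (0.95) and DTL (0.95). With the clone as a block that count was 34 (35.1% of all genes called), and without wild-type clone 5 it was 13. For bexobrutideg with venetoclax they were MCM4 (1.51), RRM2 (1.48), PCNA (1.47), UHRF1 (1.47), MCM6 (1.4), MCM10 (1.35), DTL (1.34), POLE2 (1.2), GINS2 (1.15) and GMNN (1.13), with 35 called under the block (32.5% of all genes). Without the library that stood apart the count was 25 (19.7% of all genes), and 36 with the block as well (34%). The largest were then GINS2 (1.28), MCM10 (1.26), MCM4 (1.25), RRM2 (1.19), DTL (1.17), MCM6 (1.07), UHRF1 (1.05), PCNA (1.01), CDC45 (1.0) and POLE2 (0.99). For pomalidomide with venetoclax they were MCM10 (1.64), RRM2 (1.55), DTL (1.53), MCM4 (1.49), MCM6 (1.38), UHRF1 (1.37), GINS2 (1.37), MCM3 (1.33), CDC45 (1.32) and POLA2 (1.31), with 37 called under the block (47.9% of all genes). Without the block, ORC1, POLE and LIG1 were called in none of the 3. With the block LIG1 was called higher in all 3, ORC1 only with pomalidomide and venetoclax, and POLE in none. In A428D clones, by values alone, 39 members were higher than under DMSO in all 6 clones with zelebrudomide and venetoclax, 36 with bexobrutideg and venetoclax and 36 with pomalidomide and venetoclax, against 16.5%, 12.2% and 17.9% of all genes.

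Without venetoclax the compounds moved fewer members, and the comparisons share the DMSO libraries. Zelebrudomide gave 1 lower member in wild-type clones, E2F1 (-0.93, SE 0.26, adjusted p = 0.0167), where 6.57% of all genes were called (median log2 change of the 39 -0.31, against -0.01 over all genes). E2F1 had 10.4, 11.7, 16.4, 11.6 and 13.1 CPM under DMSO and 4.48, 6.295, 8.74, 7.15 and 6.4 CPM under zelebrudomide in clones 1 to 5, without overlap. MCM2, ORC1, ORC6, GINS4, POLE, POLE2 and RRM1 also did not overlap, all lower, where 5.7% of all genes lay fully below DMSO. In all 5 clones 25 members were lower, against 16.3% of all genes. With the clone as a block 13 fell, with log2 changes from -0.93 for E2F1 and -0.73 for POLE2 to -0.31 for GINS3, where 16.2% of all genes were called. Without wild-type clone 1, 2 or 5 none was called, and without A428D clone 1 there were 2. Outside the 39, E2F8 (-1.26), a repressive E2F, and EXO1 (-0.94) fell, CDKN2D (-0.59), an inhibitor of CDK4 and CDK6, fell, and CCND2 (0.66), a D cyclin, rose.

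Bexobrutideg alone gave no called member in wild-type clones by edgeR or DESeq2 (median -0.24; 2 at an unadjusted p under 0.05, E2F1 and ORC1), where 2.45% of all genes were called. E2F1 had 6.72, 8.77, 9.903, 6.38 and 9.55 CPM, all below the DMSO libraries. It was 1 of 5 members that lay fully below DMSO, where 4.41% of all genes did. In all 5 clones 22 members were lower, against 14% of all genes. With the block 6 fell: E2F1 (-0.62, SE 0.17, adjusted p = 0.00846), ORC1 (-0.59), GINS4 (-0.55), TYMS (-0.48), MCM2 (-0.42) and RRM1 (-0.33), where 10.6% of all genes were called. Without A428D clone 1 and without the block 2 were called. Pomalidomide alone gave 2 lower members, POLE (-0.62, SE 0.19, adjusted p = 0.0216) and GINS3 (-0.50, SE 0.13, adjusted p = 0.00623), where 9.99% of all genes were called (median 0.05). POLE had 17.96, 18.3, 17.2, 18.7 and 18.7 CPM under DMSO and 13.03, 11.8, 11.1, 12.5 and 10.5 CPM under pomalidomide, and GINS3 24.7, 25.6, 22, 24.2 and 23.3 and 18.8, 16.6, 14.8, 16.01 and 18.3 CPM. Neither overlapped. In all, 4 members lay fully below DMSO and 2 fully above, where 6.13% and 6.61% of all genes did. Within clones, 6 members were lower in all 5 and 9 higher, against 15.1% and 15.2% of all genes. COL1A1 rose under pomalidomide (1.14, SE 0.31, adjusted p = 0.00756), and its part was not tested. With the block E2F1 fell as well (-0.68, SE 0.17, adjusted p = 0.00123) and TK1 rose (0.48, SE 0.14, adjusted p = 0.00764), from 17.5, 20.02, 17.4, 18.6 and 17.8 CPM to 22.6, 28.7, 27.7, 26.9 and 21.4 CPM, where 19.2% of all genes were called. Without wild-type clone 2 none was called, and without any other wild-type clone 1.

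In A428D clones no member was called under zelebrudomide, bexobrutideg or pomalidomide alone by edgeR or DESeq2 (medians 0.07, -0.01 and 0.04; 0, 0 and 3 at an unadjusted p under 0.05), where 2.06%, 0% and 8.68% of all genes were called. E2F1 averaged 15.1 ± 5.25 CPM under DMSO, 13.7 ± 5.399 under zelebrudomide, 14.4 ± 4.84 under bexobrutideg and 10.7 ± 3.99 under pomalidomide (SD, n = 6). COL1A1 rose under pomalidomide here too (log2 change 1.21, adjusted p = 0.00132) and was not called under zelebrudomide or bexobrutideg, and its part was not tested. With the block, pomalidomide gave 6 called members, where 16.7% of all genes were called: E2F1 (-0.49, SE 0.14, adjusted p = 0.0104) and POLE (-0.41) fell, and POLA1 (0.47), GINS1 (0.47), CDC6 (0.32) and TYMS (0.28) rose. The difference between genotypes was called for no member by edgeR or DESeq2 with zelebrudomide (median 0.40; 1.04% of all genes called), bexobrutideg (0.24; 0.615%) or pomalidomide (0.03; 0%), with 4, 0 and 0 members at an unadjusted p under 0.05. With the block it was called for 8 members with zelebrudomide (6.76% of all genes), E2F1 among them (0.79, SE 0.23, adjusted p = 0.0175), for 4 with bexobrutideg (GINS4, ORC1, MCM2 and TYMS; 5.03% of all genes), all higher in A428D, and for none with pomalidomide. Without A428D clone 1 and without the block 1 was called with zelebrudomide.

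The compounds were also set against each other in wild-type clones, at doses not given in the sources used here, in 2 pairs. Zelebrudomide minus bexobrutideg gave no called member by edgeR or DESeq2 (median -0.05; 1 at an unadjusted p under 0.05; 1.23% of all genes called), and 1 with the block, ORC6 (-0.45, SE 0.13, adjusted p = 0.0246; 4.43% of all genes called). Zelebrudomide minus pomalidomide gave none by edgeR or DESeq2 either (median -0.38; 11 at an unadjusted p under 0.05; 7.43% of all genes called), and 17 with the block, all lower under zelebrudomide, where 18.4% of all genes were called. POLE2 (-0.73), RRM2 (-0.66), MCM10 (-0.64), TYMS (-0.63), GINS1 (-0.62), MCM6 (-0.60), DTL (-0.59), CDT1 (-0.57), ORC1 (-0.55) and MCM2 (-0.51) led them. For 11 members every zelebrudomide library lay below every pomalidomide library, as for 6.52% of all genes, and 25 were lower in all 5 clones, as were 17.1% of all genes. Left out, A428D clone 1 gave 4 without the block. POLE2 had 1.33, 2.15, 1.75, 1.95 and 1.96 CPM under zelebrudomide, 1.82, 2.15, 2.67, 1.74 and 1.94 CPM under bexobrutideg and 2.71, 3.35, 3.55, 1.61 and 4.04 CPM under pomalidomide in clones 1 to 5. The first and last of these ranges overlapped.

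Levels in the remaining groups are given as mean ± SD in CPM (n = 5 wild-type, n = 6 A428D clones). In wild-type clones MCM2 had 31.6 ± 4.01 under zelebrudomide, 31.99 ± 4.27 under bexobrutideg, 44.99 ± 6.26 under pomalidomide, and 57.7 ± 9.502, 58.7 ± 14.97 and 80.6 ± 9.98 with venetoclax added to each. MCM10 had 8.53 ± 2.37 under zelebrudomide, 10.7 ± 3.19 under bexobrutideg, 13.2 ± 2.95 under pomalidomide, and 27.2 ± 4.69, 32.02 ± 7.35 and 38.3 ± 5.94 with venetoclax added to each. CDC6 had 11.1 ± 1.74 under zelebrudomide, 11.1 ± 1.25 under bexobrutideg, 15.8 ± 1.67 under pomalidomide, and 21.6 ± 4.195, 26.9 ± 7.97 and 29.97 ± 5.22 with venetoclax added to each. These 3 genes of licensing and firing, and the other 11 named here, had a higher mean in each combination than with the same compound alone. CDT1 had 19.8 ± 1.78 under zelebrudomide, 18.3 ± 2.697 under bexobrutideg, 29.6 ± 2.92 under pomalidomide, and 28.9 ± 6.43, 23.2 ± 12.2 and 45.7 ± 8.95 with venetoclax added to each. CDC45 had 9.21 ± 0.407 under zelebrudomide, 9.93 ± 2.403 under bexobrutideg, 12.8 ± 1.52 under pomalidomide, and 26.4 ± 6.66, 28.99 ± 7.51 and 33.1 ± 5.43 with venetoclax added to each. GINS2 had 4.76 ± 0.506 under zelebrudomide, 4.71 ± 1.26 under bexobrutideg, 6.58 ± 2.36 under pomalidomide, and 15.99 ± 5.63, 14.3 ± 6.22 and 17.4 ± 3.69 with venetoclax added to each. PCNA had 117 ± 22.6 under zelebrudomide, 113 ± 23.2 under bexobrutideg, 158 ± 26.3 under pomalidomide, and 271 ± 70.1, 398 ± 251 and 319.8 ± 39.9 with venetoclax added to each. POLE2 had 1.83 ± 0.314 under zelebrudomide, 2.07 ± 0.374 under bexobrutideg, 3.05 ± 0.936 under pomalidomide, and 5.63 ± 1.19, 7.66 ± 3.67 and 7.26 ± 0.799 with venetoclax added to each. RRM2 had 13.5 ± 2.17 under zelebrudomide, 14.7 ± 2.93 under bexobrutideg, 21.3 ± 4.39 under pomalidomide, and 38.5 ± 8.703, 57.2 ± 27.6 and 57.6 ± 10.1 with venetoclax added to each. PCNA had its lowest mean under bexobrutideg, POLE2 and RRM2 under zelebrudomide. TYMS had 34.6 ± 4.95 under zelebrudomide, 32.4 ± 5.81 under bexobrutideg, 53.3 ± 2.71 under pomalidomide, and 82.8 ± 16.1, 97.1 ± 21.9 and 110.1 ± 15.1 with venetoclax added to each. E2F1 had 6.61 ± 1.54 under zelebrudomide, 8.26 ± 1.62 under bexobrutideg, 7.86 ± 0.428 under pomalidomide, and 16.7 ± 2.65, 18.2 ± 6.903 and 20.95 ± 2.26 with venetoclax added to each. UHRF1 had 11.9 ± 2.24 under zelebrudomide, 11.4 ± 2.51 under bexobrutideg, 16.4 ± 2.38 under pomalidomide, and 27.4 ± 7.38, 40.1 ± 26.7 and 35.04 ± 5.81 with venetoclax added to each. Of these, E2F1 had its lowest mean under zelebrudomide. DTL had 5.38 ± 1.59 under zelebrudomide, 6.03 ± 1.67 under bexobrutideg, 8.09 ± 1.49 under pomalidomide, and 14.6 ± 2.299, 19.9 ± 6.61 and 21.6 ± 1.897 with venetoclax added to each. GMNN had 14.98 ± 2.697 under zelebrudomide, 13.3 ± 3.23 under bexobrutideg, 16.3 ± 3.31 under pomalidomide, and 32.5 ± 8.83, 32.6 ± 11.99 and 34.9 ± 3.94 with venetoclax added to each.

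These values of bexobrutideg with venetoclax include the library that stood apart, and the levels without it (n = 4) were as follows. MCM2 had 64.3 ± 9.54, MCM10 29.8 ± 6.28, CDC6 23.8 ± 4.49, CDT1 28.3 ± 5.12, CDC45 27.02 ± 7.01 and GINS2 16.6 ± 3.93 CPM. PCNA had 288.9 ± 65.4, POLE2 6.21 ± 2, RRM2 45.6 ± 10.7, TYMS 89.7 ± 16.7, E2F1 21.2 ± 1.31, UHRF1 28.4 ± 4.82, DTL 17.02 ± 1.75 and GMNN 28.2 ± 7.79 CPM. The mean of PCNA was 398 with that library, and that of UHRF1 40.1.

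In A428D clones MCM2 had 54.1 ± 16.8 under DMSO, 61.1 ± 24.7, 58.1 ± 21.4, 57.9 ± 25.6 and 86.5 ± 19.2 under zelebrudomide, bexobrutideg, pomalidomide and venetoclax, and 92.98 ± 25.6, 84.8 ± 20.3 and 91.7 ± 25.4 in the combinations in that order. MCM10 had 17.2 ± 7.51 under DMSO, 19.3 ± 8.06, 17.04 ± 6.08, 16.98 ± 7.19 and 36.7 ± 7.89 under zelebrudomide, bexobrutideg, pomalidomide and venetoclax, and 40.4 ± 9.72, 38.5 ± 5.68 and 39.1 ± 9.97 in the combinations in that order. CDC6 had 14.4 ± 4.31 under DMSO, 16.9 ± 3.88, 15.7 ± 5.26, 17.8 ± 4.01 and 27.9 ± 4.399 under zelebrudomide, bexobrutideg, pomalidomide and venetoclax, and 28.9 ± 6.96, 27.8 ± 4.65 and 29.1 ± 7.42 in the combinations in that order. For these genes the venetoclax group and the 3 combinations lay within 1 SD of each other. CDT1 had 26.5 ± 8.12 under DMSO, 34.1 ± 12.7, 30.3 ± 9.92, 33.1 ± 11.4 and 34.6 ± 7.899 under zelebrudomide, bexobrutideg, pomalidomide and venetoclax, and 44.3 ± 13.02, 37.6 ± 10.6 and 42.2 ± 14.97 in the combinations in that order. CDC45 had 20.4 ± 8.07 under DMSO, 21.03 ± 9.48, 20.9 ± 8.92, 19.6 ± 8.99 and 40.8 ± 10.7 under zelebrudomide, bexobrutideg, pomalidomide and venetoclax, and 41.6 ± 9.104, 38.6 ± 10.4 and 37.2 ± 10.7 in the combinations in that order. GINS2 had 9.96 ± 3.71 under DMSO, 10.96 ± 5.64, 9.94 ± 4.096, 10.1 ± 4.604 and 19.01 ± 5.64 under zelebrudomide, bexobrutideg, pomalidomide and venetoclax, and 20.5 ± 4.94, 19.9 ± 5.203 and 20.3 ± 5.28 in the combinations in that order. The SD of each is widened by clone 1, the lowest. PCNA had 203 ± 57.1 under DMSO, 199.9 ± 63.8, 195 ± 61.8, 205 ± 55.1 and 372 ± 64.7 under zelebrudomide, bexobrutideg, pomalidomide and venetoclax, and 393 ± 86.6, 371 ± 70.2 and 376 ± 85.8 in the combinations in that order. POLE2 had 4.32 ± 1.69 under DMSO, 4.12 ± 1.85, 4.19 ± 1.36, 4.23 ± 2.196 and 7.81 ± 2.703 under zelebrudomide, bexobrutideg, pomalidomide and venetoclax, and 7.72 ± 2.002, 8.28 ± 2.06 and 7.02 ± 1.998 in the combinations in that order. RRM2 had 23.7 ± 8.35 under DMSO, 27.8 ± 10.1, 25.8 ± 9.25, 27.5 ± 11.4 and 53.6 ± 11.2 under zelebrudomide, bexobrutideg, pomalidomide and venetoclax, and 58.1 ± 14.1, 50.4 ± 11.4 and 56.8 ± 14.01 in the combinations in that order. Their means under DMSO and under the 3 compounds alone differed by less than the SD. TYMS had 57.7 ± 20.6 under DMSO, 69.4 ± 26.5, 58.6 ± 21.6, 69.8 ± 26.7 and 106 ± 31.2 under zelebrudomide, bexobrutideg, pomalidomide and venetoclax, and 117 ± 34.4, 101 ± 31.7 and 116 ± 37.4 in the combinations in that order. E2F1 had 15.1 ± 5.25 under DMSO, 13.7 ± 5.399, 14.4 ± 4.84, 10.7 ± 3.99 and 27.7 ± 4.39 under zelebrudomide, bexobrutideg, pomalidomide and venetoclax, and 26.5 ± 4.83, 26.96 ± 6.12 and 22.3 ± 4.36 in the combinations in that order. UHRF1 had 21.2 ± 7.38 under DMSO, 25.5 ± 10.7, 21.8 ± 8.88, 26.8 ± 11.2 and 42.1 ± 8.895 under zelebrudomide, bexobrutideg, pomalidomide and venetoclax, and 42.1 ± 11.2, 40.7 ± 12.1 and 43.1 ± 11.2 in the combinations in that order. E2F1 had its lowest mean under pomalidomide. DTL had 9.12 ± 3.77 under DMSO, 8.94 ± 3.34, 7.91 ± 2.796, 9.997 ± 3.36 and 20.01 ± 3.17 under zelebrudomide, bexobrutideg, pomalidomide and venetoclax, and 21.04 ± 2.93, 17.9 ± 4.596 and 17.98 ± 4.03 in the combinations in that order. GMNN had 19.2 ± 4.34 under DMSO, 20.1 ± 5.29, 18.4 ± 5.51, 20.2 ± 5.09 and 30.7 ± 5.702 under zelebrudomide, bexobrutideg, pomalidomide and venetoclax, and 37.5 ± 5.43, 31.6 ± 5.18 and 37.6 ± 7.704 in the combinations in that order.

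**Figure D4:**
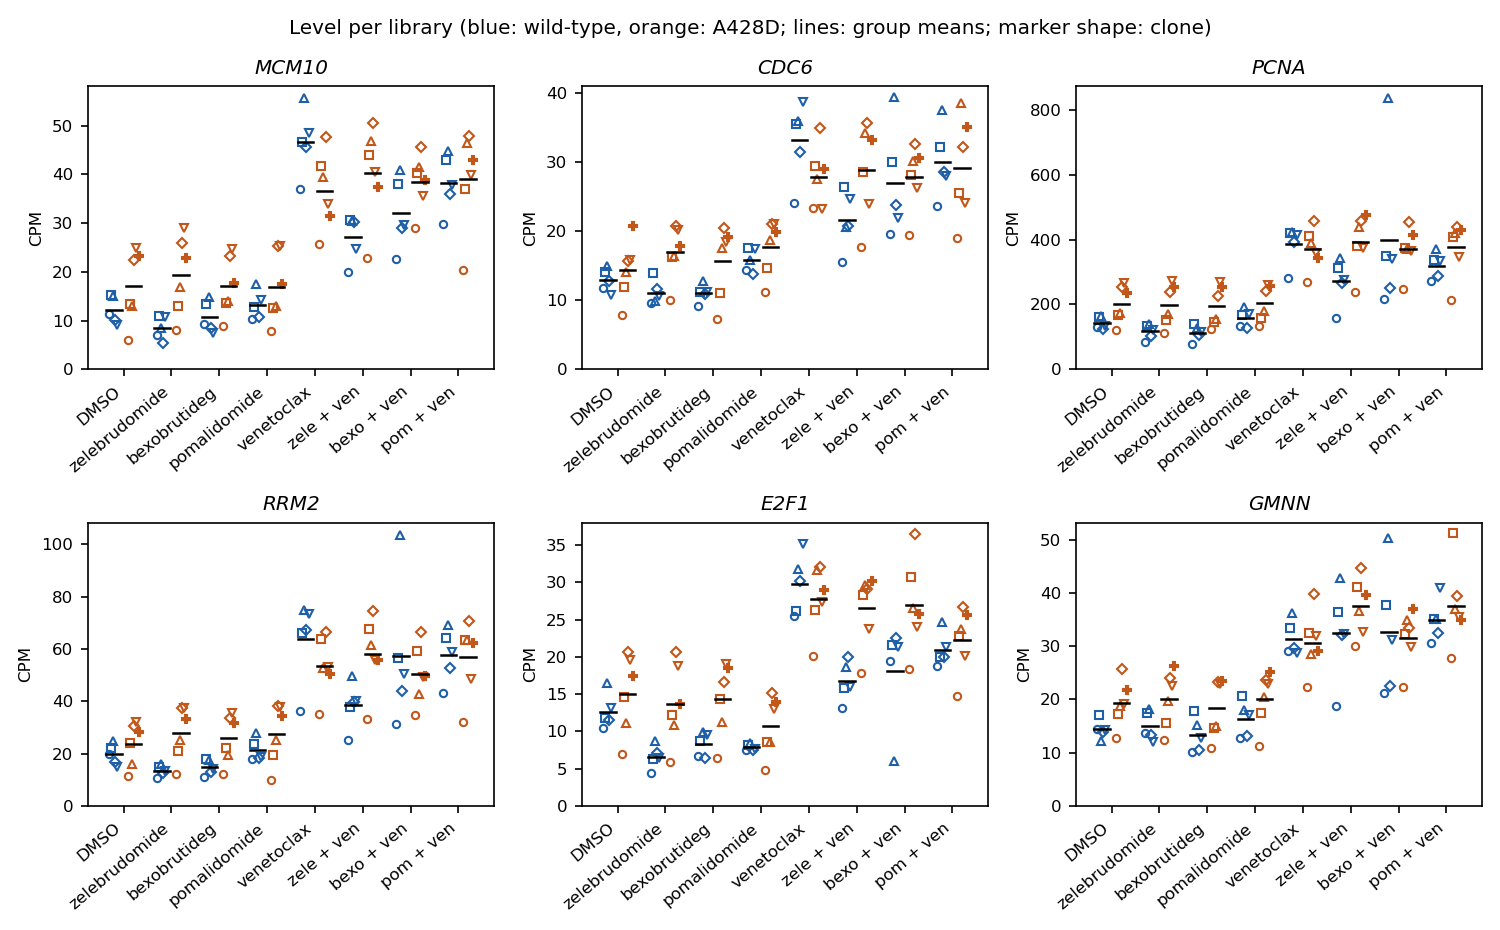
CPM of MCM10, CDC6, PCNA, RRM2, E2F1 and GMNN (y axes) in the 8 conditions (x axes), with 1 point per clone (blue wild-type, orange A428D) and a line at each group mean. E2F1 averages 12.7 CPM under DMSO and 6.61 under zelebrudomide in wild-type clones.

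Under DMSO, A428D and wild-type clones were compared over 11 libraries. No member was called by edgeR (smallest adjusted p = 0.0759, TK1; 8 at an unadjusted p under 0.05), DESeq2 called 3, and 7.13% of 13397 tested genes were called. The median difference, A428D minus wild-type, was 0.33 on the log2 scale, with 38 of 39 members above 0. TK1 had 17.5, 20.02, 17.4, 18.6 and 17.8 CPM in wild-type clones 1 to 5 and lowest, median and highest levels of 14.9, 32.2 and 44.9 CPM in A428D clones. UHRF1 had 12.1, 15.9, 15.7, 11.5 and 12.5 CPM and 11.2, 20.7 and 30.1 CPM. All 39 members overlapped between the genotypes, while 5.13% of all genes did not. The summed level was 949.7 ± 75.5 CPM in wild-type and 1214 ± 328 CPM in A428D clones. Leaving out each clone in turn gave 0 to 20 called members. The 20, all higher in A428D, came without A428D clone 1. That clone was the lowest for most of these same members, and the share of all genes called without it is not given here. Of the other replication genes POLE4 (0.41), a small subunit of polymerase epsilon, and RPA3 (0.36), of the single-strand binding complex, were higher in A428D, as was the D cyclin CCND3 (1.01).

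In the untreated set, sequenced deeper, TK1 was the only member called (0.23, SE 0.06, adjusted p = 0.0334), higher in A428D, where 5.9% of 14564 tested genes were called. It had 70.02, 68.6, 75.95, 60.03 and 69.9 CPM in wild-type clones and lowest, median and highest levels of 75.4, 79.7 and 90.2 CPM in A428D clones, which overlapped. DESeq2 called 3 members, 1 higher and 2 lower. Without A428D clone 3 or wild-type clone 1, 2, 4 or 5 none was called, and without A428D clone 1 or 2 there were 2. The median difference over the 39 was -0.04, with 15 above 0 and 24 below, and 7 members were at an unadjusted p under 0.05. Only MCM10 did not overlap between the genotypes, where 4.6% of all genes did not. It was lower in A428D, at 64.45 to 70.72 CPM against 71.8 to 79.06 CPM in wild-type clones (log2 change -0.14, adjusted p = 0.0604). The summed level was 3723 ± 56.9 CPM in wild-type clones, 3620 ± 159 CPM in A428D clones and 3743 CPM in the parental line, which has 1 library. PCNA had 714 CPM in the parental line, 729 ± 27.3 in wild-type and 718 ± 65.1 in A428D clones (SD, n = 5 and 6). MCM10 had 78.2, 75.5 ± 3.2 and 68.3 ± 2.21 CPM in that order, E2F1 44.4, 43.5 ± 2.9 and 49.6 ± 4.91, and RRM2 145, 137 ± 7.92 and 134 ± 11.95. Of the 39 members, 35 had a parental level within the range of the 11 clones. The collagen COL1A1 was called higher in untreated A428D than in untreated wild-type clones (log2 change 0.604, SE 0.128, adjusted p = 0.0112), and its part was not tested.

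Other members in the untreated set, in the order parental line, wild-type and A428D clones and as mean ± SD in CPM, had the following levels. MCM2 had 149, 145 ± 5.97 and 137 ± 10.3, CDC6 52.1, 47.8 ± 2.61 and 49.4 ± 2.3, and CDT1 71.8, 67.9 ± 1.82 and 64.9 ± 3.08. GMNN, the inhibitor of CDT1, had 78.3, 77.4 ± 4.38 and 75.1 ± 3.65. CDC45 had 82.7, 83.7 ± 2.99 and 76.8 ± 7.88, and GINS2 39.8, 42.1 ± 2.08 and 40.9 ± 4.67. POLE2 had 15.5, 17.1 ± 1.49 and 17.8 ± 1.51, and TYMS 296, 297 ± 7.403 and 268 ± 17.4. UHRF1 had 87.4, 94.6 ± 5.42 and 93.8 ± 9.45, and DTL 36.3, 38.4 ± 1.42 and 35.04 ± 1.37.

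Untreated libraries were set against DMSO libraries of the same clones, in a comparison where being untreated and belonging to the other set cannot be told apart. Of the 39 members, 38 were higher untreated in wild-type clones (median log2 change 1.76; 72% of 15354 tested genes called) and 37 in A428D clones (1.46; 71% called). The largest in wild-type clones were MCM4 (2.68), GINS1 (2.6), UHRF1 (2.57), RRM2 (2.56), TYMS (2.49), CDC45 (2.42), GINS2 (2.41), MCM10 (2.39), POLE2 (2.25) and GMNN (2.2). In A428D clones they were GINS1 (2.45), RRM2 (2.27), MCM4 (2.18), TYMS (1.98), UHRF1 (1.91), POLE2 (1.81), GINS2 (1.81), MCM10 (1.76), CHAF1B (1.73) and GMNN (1.73). POLD1 was called in neither (0.09 and -0.18), nor MCM5 in A428D clones (0.10). On the scale fitted over both sets MCM4 had 19.5, 29.7, 32.3, 18.8 and 22.9 CPM under DMSO and 150.3, 165, 157, 156 and 159 CPM untreated in wild-type clones, and GINS1 3.73, 4.39, 5.11, 4.13 and 4.46 and 26.6, 25.2, 26.6, 28.2 and 25.7 CPM. Neither overlapped, as held for every called member, and 31.9% of all genes in wild-type and 24.8% in A428D clones lay as fully above DMSO. Mitosis genes were higher untreated as well, 22 of 22 in both genotypes (medians 1.17 and 1.01), and the B cell markers CD79A, CD79B, MS4A1, PAX5 and CD22 were lower. Of the 11 markers of other cell types, 3 passed the filter here: CD2, known from T cells, had 0 counts in each of the 11 DMSO libraries and 17 to 22 in each untreated clone library, and was called higher. COL1A2, another fibroblast collagen, was higher untreated by 1.47 and 1.07 on the log2 scale in wild-type and A428D clones, while COL1A1 was not called. Their summed level was 8.47 ± 2.48 CPM under DMSO and 11.3 ± 0.582 CPM untreated in wild-type clones (SD, n = 5). The share of mitochondrial counts was 7.304% to 9.07% under DMSO and 9.28% to 11.1% untreated in wild-type clones, and 6.51% to 8.88% and 8.94% to 10.8% in A428D clones, without overlap. The part of these measures in the result was not tested.

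**Figure D5:**
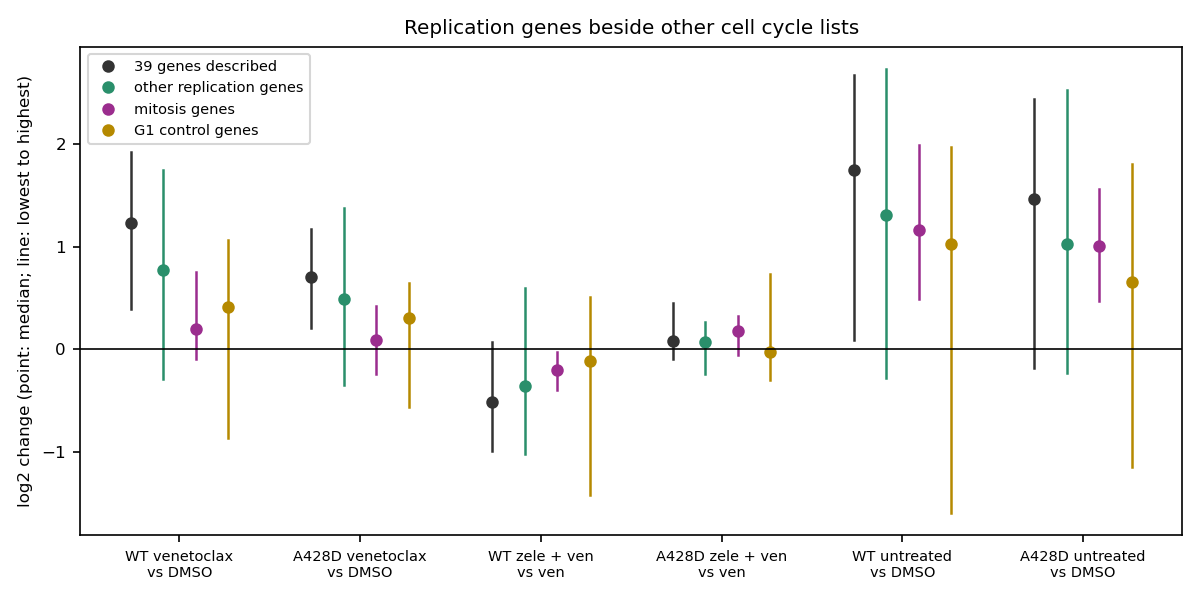
Log2 change (y axis; point, median; line, lowest to highest gene) of the 39 genes and of the lists of other replication, mitosis and G1 genes in 6 comparisons (x axis). Under venetoclax in wild-type clones the medians are 1.23 for the 39 genes, 0.78 for other replication genes and 0.20 for mitosis genes.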

How the data were processed

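Polyadenylated RNA was counted in 100 libraries, and the deposited values are estimated counts (78894 gene identifiers, no normalisation), of which 8.758% were not whole. The tools named in the submitters' processing notes, whose roles and order are not stated, include the aligner STAR 2.7.11, featureCounts of Subread 2.1.1, fastp 0.24.0 and edgeR, beside FastQC 0.12.1, MultiQC 1.32 and SAMtools 1.22.1, and the builds are GRCh38 and hg38. The annotation release and strand setting are not given in the sources used here.

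Values were rounded to whole numbers, which changed the total by -0.0068%, and 92 spike-in entries were left out of library sizes. For 36134 identifiers no symbol was given, and these were tested but are not named. Counts were tested with edgeR 4.0.16 (R 4.3.3): quasi-likelihood test, TMM scaling, default expression filter (minimum count 10, minimum total 15), robust dispersions and Benjamini-Hochberg adjustment over all genes tested, with 0.05 as the threshold of a call. This test gave each adjusted p printed unless DESeq2 is named. A standard error (SE) is the size of the log2 change divided by the square root of the F statistic. Changes within a clone are differences of log2 CPM with a prior count of 2. The 88 libraries of the 24 h set shared 1 fit over 16 groups. The genotypes were compared in the 11 DMSO and in the 11 untreated clone libraries, and untreated with DMSO in 22. Each clone is a replicate, and the labels name the same clone in every condition, so the clone number pairs libraries. Deviations from group means were correlated over the 500 genes in which these deviations varied most. The median was 0.63 within a clone (lowest -0.09) and -0.15 between clones of 1 genotype, and 88 of 88 libraries were nearest to their own clone. Deviations within a group sum to 0, so the value between clones follows in part from the value within a clone. Values from a fit with the clone as a block stand beside results whose call or count it changed. In no group did replicate libraries agree within sampling noise (lowest chi-square per degree of freedom 1.79).

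The members and the gene lists were chosen with earlier results of these data known. In each comparison every called member is named where 10 or fewer were called, otherwise the 10 with the largest change, and at most 4 called genes of each other list; levels in every group are given for 14 members. Alternatives were DESeq2 1.42.0, its size factors (RLE), no expression filter, the block, only the groups compared, leaving out each clone, and leaving out the shallowest library. Counts from leaving out a clone are given without the share of all genes called in that fit. The procedure was tested on simulated data: for venetoclax against DMSO in wild-type clones, over 14962 genes, it called 49.5% of genes changed 1.5-fold and 74.7% of genes changed 2-fold. The simulation kept the library sizes and the spread of the data. It changed 99 genes by each fold, whereas 32.8% of all genes were called in the real comparison, so recovery there can differ. Counting precision covers the sampling of reads only. Promoter positions are those of RefSeq on GRCh38.p14, and gene overlaps come from GENCODE 29.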

Additional observations from a re-analysis of the deposited data

Results flagged for a closer look

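Within groups of 5 or 6 clones, 1 clone stood apart from the others by Dixon's criterion in 10 of 270 group values of the 14 members followed in every group and of the summed level. Chance marks about 1 in 20 such values, and those below are descriptions.

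In the wild-type group given bexobrutideg and venetoclax, 4 of the 10 came from clone 3, the shallowest library: PCNA was at 835.4 CPM (217.4 to 348.6 in the other clones), UHRF1 at 87.23 CPM (23.24 to 33.7), DTL at 31.4 CPM (14.71 to 18.67) and E2F1 at 5.981 CPM (19.4 to 22.5). Under venetoclax alone, wild-type clone 1 was low for PCNA, at 281.4 CPM (392.3 to 424.3), and for RRM2, at 36.27 CPM (66.3 to 75).

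A428D clone 1 was low for MCM2 under venetoclax, at 48.28 CPM (89.24 to 99.82), for GINS2 with zelebrudomide and venetoclax, at 11.16 CPM (20.4 to 25.89), and for GINS2 with pomalidomide and venetoclax, at 10.39 CPM (20 to 25.34). A428D clone 4 was high for DTL with bexobrutideg and venetoclax, at 26.57 CPM (13.77 to 18.44).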

How the results depend on the processing

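No call of a named member reversed its direction under the alternatives given here. Counts below are called members of 39, and the cause of a moved count was not tested. Counts from a fit with fewer libraries also rest on fewer replicates. The share of all genes called moved with the block too, as given above, and shares are not printed beside the counts below. These counts are therefore not results about the members alone. Depth limits single values most in the shallowest library, at 1.477 times 1000000 counts. In simulated data 49.5% of 1.5-fold changes were recovered for venetoclax in wild-type clones. Depth was not varied there, and the spread between clones enters as well, so this share does not measure a limit of depth. The replicate block kept 88 of 88 named calls, and of the 89 named calls RLE scaling and the fit with no filter kept 89 and DESeq2 88. Leaving out 1 wild-type clone kept 74 to 78 of the 89, and 1 A428D clone 88 or 89. Of the 68 named calls of the 24 h set, 65 were kept without the shallowest library, 68 with the block as well, and 63 with only the groups compared in the fit.

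With the clone as a replicate block, the count moved from 0 to 4 for pomalidomide added to venetoclax (A428D), 0 to 6 for pomalidomide alone (A428D), 0 to 1 for zelebrudomide added to venetoclax (A428D), 0 to 11 for bexobrutideg added to venetoclax (genotype difference) and 0 to 4 for bexobrutideg alone (genotype difference). It went from 0 to 2 for venetoclax alone (genotype difference), 0 to 26 for zelebrudomide added to venetoclax (genotype difference), 0 to 8 for zelebrudomide alone (genotype difference), 5 to 21 for bexobrutideg added to venetoclax (wild-type) and 0 to 6 for bexobrutideg alone (wild-type). The count also went from 0 to 7 for pomalidomide added to venetoclax (wild-type), 2 to 4 for pomalidomide alone (wild-type), 21 to 34 for zelebrudomide with venetoclax against DMSO (wild-type), 10 to 30 for zelebrudomide added to venetoclax (wild-type) and 0 to 1 for zelebrudomide against bexobrutideg. It further went from 1 to 13 for zelebrudomide alone (wild-type) and 0 to 17 for zelebrudomide against pomalidomide. With the replicate block and without that library, the count moved from 0 to 8 for pomalidomide added to venetoclax (A428D), 0 to 11 for pomalidomide alone (A428D), 0 to 2 for zelebrudomide added to venetoclax (A428D), 0 to 1 for zelebrudomide alone (A428D) and 0 to 15 for bexobrutideg added to venetoclax (genotype difference). It went from 0 to 6 for bexobrutideg alone (genotype difference), 0 to 8 for venetoclax alone (genotype difference), 0 to 30 for zelebrudomide added to venetoclax (genotype difference), 0 to 10 for zelebrudomide alone (genotype difference) and 5 to 27 for bexobrutideg added to venetoclax (wild-type). The count also went from 0 to 9 for bexobrutideg alone (wild-type), 0 to 12 for pomalidomide added to venetoclax (wild-type), 2 to 6 for pomalidomide alone (wild-type), 21 to 35 for zelebrudomide with venetoclax against DMSO (wild-type) and 10 to 33 for zelebrudomide added to venetoclax (wild-type). It further went from 0 to 2 for zelebrudomide against bexobrutideg, 1 to 14 for zelebrudomide alone (wild-type) and 0 to 20 for zelebrudomide against pomalidomide.

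Without the shallowest library, the count moved from 0 to 3 for zelebrudomide added to venetoclax (genotype difference), 5 to 2 for bexobrutideg added to venetoclax (wild-type) and 0 to 1 for pomalidomide added to venetoclax (wild-type). With no expression filter, the count moved from 0 to 1 for pomalidomide added to venetoclax (A428D), 0 to 1 for pomalidomide alone (A428D), 0 to 1 for zelebrudomide added to venetoclax (A428D), 0 to 5 for A428D against wild-type under DMSO and 0 to 8 for bexobrutideg added to venetoclax (genotype difference). It went from 0 to 1 for bexobrutideg alone (genotype difference), 0 to 1 for venetoclax alone (genotype difference), 0 to 25 for zelebrudomide added to venetoclax (genotype difference), 0 to 7 for zelebrudomide alone (genotype difference) and 5 to 18 for bexobrutideg added to venetoclax (wild-type). The count also went from 0 to 5 for bexobrutideg alone (wild-type), 0 to 3 for pomalidomide added to venetoclax (wild-type), 2 to 4 for pomalidomide alone (wild-type), 10 to 28 for zelebrudomide added to venetoclax (wild-type) and 1 to 8 for zelebrudomide alone (wild-type). It further went from 0 to 14 for zelebrudomide against pomalidomide. With only the groups compared in the fit, the count moved from 0 to 8 for zelebrudomide added to venetoclax (genotype difference), 5 to 0 for bexobrutideg added to venetoclax (wild-type), 0 to 9 for bexobrutideg alone (wild-type), 0 to 4 for pomalidomide added to venetoclax (wild-type), 2 to 7 for pomalidomide alone (wild-type), 21 to 34 for zelebrudomide with venetoclax against DMSO (wild-type), 10 to 23 for zelebrudomide added to venetoclax (wild-type), 1 to 14 for zelebrudomide alone (wild-type) and 0 to 19 for zelebrudomide against pomalidomide. With DESeq2, the count moved from 0 to 3 for A428D against wild-type under DMSO, 1 to 3 for A428D against wild-type untreated and 0 to 1 for zelebrudomide added to venetoclax (genotype difference). Leaving out 1 clone at a time gave counts from 37 to 38 for untreated against DMSO in A428D clones, 18 to 33 for venetoclax alone (A428D), 0 to 20 for A428D against wild-type under DMSO, 0 to 2 for A428D against wild-type untreated and 0 to 1 for bexobrutideg added to venetoclax (genotype difference). It went from 0 to 15 for zelebrudomide added to venetoclax (genotype difference), 0 to 1 for zelebrudomide alone (genotype difference), 19 to 33 for bexobrutideg with venetoclax against DMSO (wild-type), 0 to 14 for bexobrutideg added to venetoclax (wild-type) and 0 to 2 for bexobrutideg alone (wild-type). The count also went from 32 to 36 for pomalidomide with venetoclax against DMSO (wild-type), 0 to 2 for pomalidomide added to venetoclax (wild-type), 0 to 3 for pomalidomide alone (wild-type), 35 to 39 for venetoclax alone (wild-type) and 13 to 28 for zelebrudomide with venetoclax against DMSO (wild-type). It further went from 5 to 25 for zelebrudomide added to venetoclax (wild-type), 0 to 2 for zelebrudomide alone (wild-type) and 0 to 4 for zelebrudomide against pomalidomide. It gave 0 each time for bexobrutideg added to venetoclax (A428D), bexobrutideg alone (A428D), pomalidomide added to venetoclax (A428D), pomalidomide alone (A428D), zelebrudomide added to venetoclax (A428D), zelebrudomide alone (A428D), bexobrutideg alone (genotype difference), pomalidomide added to venetoclax (genotype difference), pomalidomide alone (genotype difference), venetoclax alone (genotype difference) and zelebrudomide against bexobrutideg. It gave 38 each time for untreated against DMSO in wild-type clones.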

Other observations

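Regulators of G1 outside the 39 genes moved with venetoclax in both genotypes. In wild-type clones 8 of 16 measured regulators rose and 3 fell, where 32.8% of all genes were called. The rises were led by TFDP1 (1.07, SE 0.19, adjusted p = 5.75e-06), the partner that E2F factors bind DNA with, CCND3 (1.05), a D cyclin, and CDK4 (0.85), its kinase. CDKN1A (-0.86), the inhibitor p21, fell. In A428D clones 4 rose and 1 fell, where 16.8% of all genes were called. Among them were TFDP1 (0.65), RBL1 (0.55), a relative of the retinoblastoma protein, and CDK4 (0.53), with CDKN1A lower (-0.56). Zelebrudomide added to venetoclax in wild-type clones gave 3 higher and 4 lower, where 21.2% of all genes were called. TFDP1 (-0.83), CDK6 (-0.74) and RBL1 (-0.56) were lower and CDKN1A (0.51) higher than under venetoclax alone.

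Pomalidomide alone called 4 regulators of G1 in each genotype, the same 4 genes: CCND2 rose by 1.02 in wild-type and 1.04 in A428D clones, CDKN1A by 0.67 and 0.56, and the log2 changes were -0.77 and -0.60 for CDKN2D and -0.68 and -0.68 for E2F5, which fell. Under pomalidomide alone 9.99% of all genes were called in wild-type and 8.68% in A428D clones. Values are log2 changes from edgeR's quasi-likelihood test.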
